A study of Mus musculus with 6 samples.

Results

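The Zfp genes studied here are the mouse genes whose symbol is Zfp followed by a number and which the deposited table marks as protein-coding. Zfp36 was left out because it encodes an RNA-binding protein of another family. Of 360 such genes in a table of 33300 features, 229 averaged 1 FPKM or more across the 6 libraries and were chosen by this measured mean, so they form the set. FPKM counts the reads of a gene per kilobase of its length and per 1000000 assigned reads. The other 131 had lower means, and 3 of them were listed at 0 in every library. These counts are of table entries, and the symbol Zfp91 has an entry on both sides of 1 FPKM. Because the mean level chose the genes, their presence is a description and no finding. Just inside the limit were Zfp870 with a mean of 1.01 FPKM, Zfp169 with 1.04 and Zfp951 with 1.05. Just outside it were Zfp58 with 0.995, Zfp759 with 0.965 and Zfp560 with 0.954.

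The cells were naive CD4 T cells of female, age-matched mice that had been cultured for 5 days on plates coated with antibodies to CD3 and CD28. All 6 cultures received antibodies to IL-4 and IFNγ at 10 µg/mL each, TGFβ1 at 1 ng/mL, IL-23 at 10 ng/mL, IL-6 at 50 ng/mL and IL-1β at 10 ng/mL, which drives T cells towards the Th17 state. The control group was 3 WT mice and the other group 3 SLE1.2.3 mice, a lupus-prone line that carries the Sle1, Sle2 and Sle3 intervals of chromosomes 1, 4 and 7 in every cell. The question put to the Zfp genes was which of them differed between the Th17 cultures of the lupus-prone and the control mice, and how such genes were placed in the genome.

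Most Zfp proteins carry C2H2 zinc fingers, short folds in which a pair of cysteines and a pair of histidines hold a zinc ion, and which read DNA in tandem arrays. Many also carry a KRAB box, a domain that recruits the corepressor Trim28 (KAP1) and through it the histone methyltransferase Setdb1 and heterochromatin proteins, mostly on transposable elements. The KRAB genes arose by repeated local duplication and lie in clusters, and these clusters differ among mouse strains.

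Assigned reads were recovered from the spacing of low FPKM values. In units of 1000000 reads, they ranged over 29.7 to 56.8 for the controls and 61.7 to 83.5 for the lupus-prone mice. T cell genes were high in all 6 libraries, with summed levels of Cd3e, Cd3d, Cd3g and Cd4 from 446 to 662 FPKM. Of the 5 Th17 genes, 4 were higher in the SLE1.2.3 libraries. The 3 γδ T cell receptor constant genes (Trdc, Trgc1 and Trgc2) summed to 1.89 to 2.32 FPKM in the controls and to 29.4, 157 and 337 in SLE1.2.3 mice 1, 2 and 3. In the same mice Cd4 stood at 257, 144 and 71.6 FPKM, and Cd8a and Cd8b1 together at 7.69, 50.0 and 110. By these markers the libraries of SLE1.2.3 mice 2 and 3 departed from their CD4 T cell label. Mouse 1 departed less, but its γδ receptor RNA, at 29.4 FPKM, was also above that of every control. B cell markers summed to at most 2.58 FPKM and myeloid markers to at most 7.94 in any library. In bulk samples, fewer cells of a type and less RNA per cell cannot be told apart.

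As a class the Zfp genes were expressed at low levels. The median of their mean levels was 3.64 FPKM, against 7.97 over all 11378 genes tested. Levels under 5 FPKM were held by 145 Zfp genes, and 31 reached 10 FPKM. Even so, the median Zfp gene was covered by 499 to 1563 reads per library, and the least covered one by 15 to 128 reads. The 229 genes took between 0.641% and 0.679% of the assigned reads in each library.

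The 5 genes with the highest levels were not lineage factors of T cells. Zfp207, a mitotic spindle protein, led with 45.5, 44.7 and 42.6 FPKM in control mice 1, 2 and 3 and 47.9, 49.6 and 51.2 FPKM in SLE1.2.3 mice 1, 2 and 3. All 3 SLE1.2.3 mice were above all controls, but the change of 0.16 ± 0.06 (SE, log2 scale) did not pass (limma, adjusted p = 0.11). Zfp106, an RNA-binding protein, stood at 31.4, 29.7 and 32.1 FPKM in the controls and 27.5, 26.2 and 24.9 FPKM in the SLE1.2.3 mice. Its groups were also apart, with a change of -0.24 ± 0.07 and an adjusted p of 0.057. Zfp740, with a mean of 27.6 FPKM, Zfp598, a sensor of collided ribosomes with 25.4, and Zfp706 with 22.3 followed. In these 3 the groups overlapped.

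The coding sequences split the set by domain. In the GENCODE M21 annotation of mm10, 228 of the 229 genes had a coding sequence, with a median of 10 C2H2 fingers and a range from 0 to 36. A KRAB-like box, defined as a match to at least 9 of 13 consensus positions, was found in 121 genes and not in 107. Genes with the box had a median of 12 fingers and a median level of 2.72 FPKM, and those without it had 7 fingers and 5.85 FPKM. The genes of highest level had few fingers, as the plot of fingers against level shows.

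**Figure D1:**
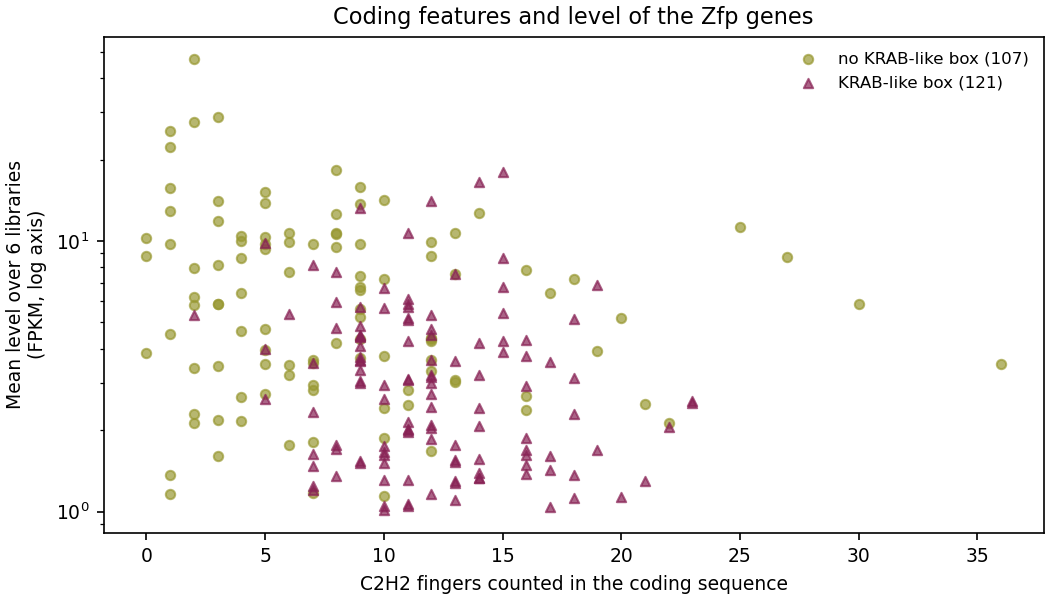
Mean level over the 6 libraries (FPKM, log axis) against the number of C2H2 fingers counted in the coding sequence, 1 point per Zfp gene. Triangles are the 121 genes with a KRAB-like box, with a median level of 2.72 FPKM, and circles the 107 without it, with a median of 5.85 FPKM.

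The comparison of the groups moved few Zfp genes, and most of those by little. At an adjusted p under 0.05, 22 of the 229 passed, or 9.61%, where 15.2% of all genes tested passed. Of these, 12 were higher in the SLE1.2.3 cells (5.24%, against 9.65% of all genes) and 10 were lower (4.37%, against 5.58%). The groups did not overlap for 91 Zfp genes, or 39.7%, against 41.5% of all genes. Of these 91, 60 were higher (26.2% of Zfp genes, against 23.9% of all genes) and 31 lower (13.5%, against 17.7%). The median change over the set was 0.03 on the log2(FPKM + 1) scale, against 0.01 over all genes, and it was -0.01 after quantile normalization. That scale understates the change of low genes. The median size of a change was 0.13 for Zfp genes and 0.17 for all genes, and for 156 Zfp genes it was under 0.2. A size of 1 or more was reached by 2 Zfp genes (0.873%), Zfp608 and Zfp395, against 5.77% of all genes. The shares of calls and of non-overlapping groups were thus near or below the background. The counts changed when 1 mouse was left out, and so did the share of all genes. Without any 1 control, or without SLE1.2.3 mouse 2, they were 1 higher and 3 lower (1.75%, against 2.11% to 2.87% of all genes). Without SLE1.2.3 mouse 3 they were 7 and 5 (5.24%, against 11.3%). Without SLE1.2.3 mouse 1 they were 24 and 29 (23.1%, against 32.5%). Zfp14, Zfp141, Zfp608 and Zfp609 passed whichever mouse was left out, and the other 18 calls were each lost without at least 1 mouse.

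**Figure D2:**
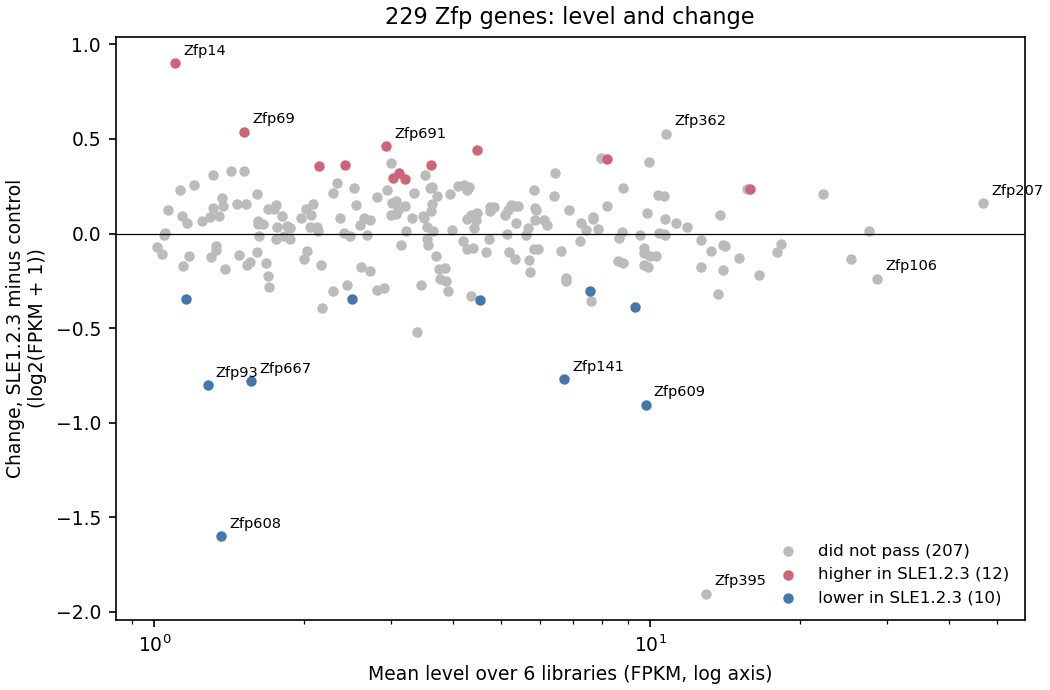
Change between groups (SLE1.2.3 minus control, log2(FPKM + 1)) against mean level (FPKM, log axis) for the 229 Zfp genes. Red points are the 12 that rose, blue points the 10 that fell and grey points the 207 that did not pass; Zfp395, at -1.90, lies lowest and did not pass.

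Some genes entered the set through 1 group only. Zfp14, Zfp455 and Zfp595 had control means under 1 FPKM, and Zfp93, Zfp109, Zfp169, Zfp608, Zfp667 and Zfp870 had SLE1.2.3 means under 1 FPKM. Of those 9, Zfp14, Zfp93, Zfp109, Zfp608 and Zfp667 are among the 22 that passed.

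On the log2(FPKM + 1) scale the largest falls among the calls were in Zfp608 and Zfp609, 2 paralogs with a single C2H2 finger each that have been studied in thymocytes for their effect on the recombinase genes. Zfp608 (ENSMUSG00000052713.9, chromosome 18) was at 3.24, 2.04 and 2.37 FPKM in control mice 1, 2 and 3. The SLE1.2.3 mice had 0.453, 0.046 and 0.023 FPKM, from 322, 24 and 15 reads. Every SLE1.2.3 mouse was far below every control, and mice 2 and 3 were lower still than mouse 1. The group mean was 14.7 times lower, and the fall was 1.60 on the log2 scale (change -1.60 ± 0.19, SE; limma, adjusted p = 0.0079). On the recovered reads limma voom gave -4.87.

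Zfp609 (ENSMUSG00000040524.9, chr9:65692391-65827564), which is known to work with the cohesin loader and the Integrator complex, had 13.9, 11.5 and 13.8 FPKM in the control mice. It had 7.31, 5.88 and 6.32 FPKM in the SLE1.2.3 mice, so that each was below the lowest control and the mean was 2.01 times lower. The change was -0.91 ± 0.11 (SE; limma, adjusted p = 0.0074). By the ratio of means, Zfp93 (2.83 times lower) and Zfp667 (2.46 times lower) fell further than Zfp609. The calls of Zfp608 and Zfp609 were kept when each mouse was left out in turn. With SLE1.2.3 mouse 1 as the only mouse of its group, the one with the least γδ receptor RNA, the changes were -1.27 for Zfp608 (adjusted p = 0.039) and -0.75 for Zfp609 (adjusted p = 0.048).

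The single finger of Zfp609 is shown for comparison with the fingers of tandem arrays printed further on. It is read from the coding sequence at chr9:65704120-65704191 (mm10, minus strand), with the codons of the zinc-binding cysteines and histidines in capitals.
Zfp609: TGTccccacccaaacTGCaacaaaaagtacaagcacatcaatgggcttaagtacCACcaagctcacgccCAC
No linker to a next finger follows it.

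Other genes off chromosome 7 changed by smaller amounts. Zfp422 on chromosome 6 fell from 10.7 ± 0.287 FPKM to 7.96 ± 0.885 (SD, n = 3 each), with a change of -0.39 and an adjusted p of 0.032 by limma. A pseudogene, Zfp422-ps, shares 708 bases with it at 97.2% identity, so reads may be split between them. Zfp326 on chromosome 5, a subunit of a complex that links transcription with splicing, fell from 5.21 ± 0.526 FPKM to 3.86 ± 0.0944 (SD, n = 3 each), with a change of -0.35 (limma, adjusted p = 0.039). Zfp263 on chromosome 16 rose from 14.5 ± 0.192 to 17.3 ± 0.704 FPKM (SD, n = 3 each), with a change of 0.24 (limma, adjusted p = 0.042). Zfp317 on chromosome 9 rose by 0.36 on the log2 scale, with levels of 2.88, 3.11 and 3.10 FPKM in the controls and 4.05, 4.33 and 4.16 in the SLE1.2.3 mice (adjusted p = 0.022).

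**Figure D3:**
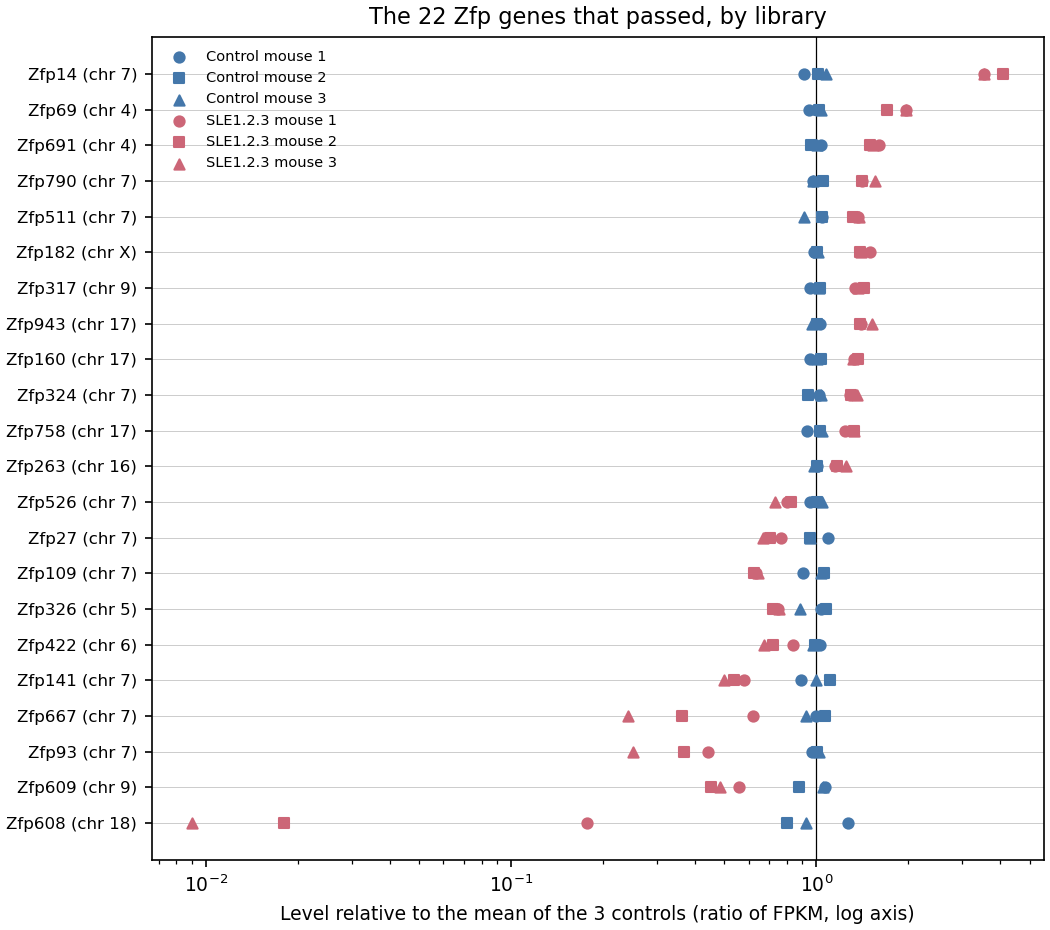
Level of each of the 22 Zfp genes that passed, in every library, divided by the mean of the 3 controls (ratio of FPKM, log axis). Blue symbols are control mice and red symbols SLE1.2.3 mice; Zfp608 reaches 0.00902 in mouse 3, Zfp14 reaches 4.10 in mouse 2, and the other genes lie between 0.241 and 1.97.

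Of the 10 genes that fell, 7 were highest in SLE1.2.3 mouse 1 among the 3 SLE1.2.3 mice, and 6 followed the order of mouse 1 over mouse 2 over mouse 3. Of the 12 that rose, 4 were lowest in mouse 1 and 2 followed the reverse order. The γδ receptor genes, at 29.4, 157 and 337 FPKM in mice 1, 2 and 3, ran in that order as well, and their part in the falls was not tested.

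The largest change of all Zfp genes on the log2(FPKM + 1) scale, in Zfp395, did not pass. Zfp395 (chr14:65358389-65398930), known as a gene induced by low oxygen, had 14.7, 21.4 and 23.6 FPKM in the control mice and 12.2, 4.65 and 1.201 FPKM in SLE1.2.3 mice 1, 2 and 3. Mouse 1 stood just below the lowest control and mouse 3 far below it, and the change of -1.90 carried an SE of 0.62 (limma, adjusted p = 0.082). Without mouse 1 the change was -2.54 and passed (limma, adjusted p = 0.0054), where 32.5% of all genes passed against 15.2% in the main fit. That fit kept SLE1.2.3 mice 2 and 3, whose libraries departed from their CD4 T cell label. With mouse 1 alone the change was -0.64. Scaling to a common FPKM sum also brought Zfp395 past the threshold, at -1.81 (limma, adjusted p = 0.020).

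Zfp318, which in B cells controls the choice between IgM and IgD, showed the same order. It had 4.16, 3.83 and 4.42 FPKM in the control mice and 3.51, 2.56 and 1.85 FPKM in the SLE1.2.3 mice, with a change of -0.52 ± 0.17 (SE; limma, adjusted p = 0.081). Zfp362 ran the opposite way, with 7.80, 8.72 and 9.01 FPKM in the control mice and 9.60, 12.98 and 16.4 FPKM in the SLE1.2.3 mice, and a change of 0.53 ± 0.18 (SE; limma, adjusted p = 0.089). Without SLE1.2.3 mouse 1 both passed by limma, at -0.69 (adjusted p = 0.0072) and 0.71 (adjusted p = 0.0055). In that fit, which kept SLE1.2.3 mice 2 and 3, 32.5% of all genes passed, against 15.2% in the main fit. Zfp362 and Zfp395 were chosen after their values were seen.

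Chromosome 7 held 60 of the 229 Zfp genes, or 26.2%, against 7.37% of all genes tested. On it 10 Zfp genes passed, 4 higher and 6 lower, or 16.7%. Of all 838 genes tested on chromosome 7, 22.6% passed. Off chromosome 7, 12 of 169 Zfp genes passed, or 7.1%, where 14.6% of all genes did. The share of Zfp genes that passed was below that of all genes both on and off chromosome 7, and these differences were not tested. The part of chromosome 7 before 50 Mb held 46 Zfp genes, of which 9 passed (19.6%, against 25.0% of its 388 genes). The rest held 14, of which 1 passed (7.14%, against 20.4% of 450 genes). Sle3 lies on chromosome 7, but its bounds were not used here, so a gene's place inside or outside the interval is not stated.

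The single gene that rose most was Zfp14 (ENSMUSG00000053985.10, chr7:30036359-30051380), a KRAB-like gene with 13 fingers. It had 0.423, 0.471 and 0.503 FPKM in the control mice and 1.65, 1.91 and 1.65 FPKM in the SLE1.2.3 mice. The controls lay close together and every SLE1.2.3 mouse was more than 3 times the highest control. The group mean was 3.73 times higher, with a change of 0.90 ± 0.09 (SE; limma, adjusted p = 0.0057). On the recovered reads limma voom gave 1.90. The level did not follow the order of γδ receptor RNA across the SLE1.2.3 mice. Every SLE1.2.3 mouse had more of that RNA than any control, and its part in the rise was not tested. The call of Zfp14 was kept under all 14 alternatives that tested the gene.

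Zfp14 lies in a run of 11 Zfp genes (chr7:29768552-30169750), the one of 17 clusters that held calls in both directions. A cluster here is 4 or more Zfp genes of the set with neighbouring starts within 1 Mb. Zfp790 (chr7:29816114-29831005) rose with it, from 3.54, 3.84 and 3.55 FPKM to 5.13, 5.13 and 5.68 FPKM, a change of 0.44 (limma, adjusted p = 0.016). Between them, Zfp27 (chr7:29893333-29906572) fell, from 3.19, 2.78 and 2.78 FPKM to 2.24, 2.05 and 1.95 FPKM, a change of -0.34 (limma, adjusted p = 0.042). Neighbours of the same cluster kept close to the control level. Zfp568, which represses a placental Igf2 transcript in embryos, had 1.77, 1.78 and 2.12 FPKM in the control mice and 2.097, 1.94 and 2.13 FPKM in the SLE1.2.3 mice. Zfp260 had a change of -0.18 and Zfp382 of 0.03, with groups that overlapped, and Zfp84, Zfp940, Zfp566 and Zfp146 had changes from -0.07 to 0.12. Zfp74 had groups apart, with a change of 0.22 (limma, adjusted p = 0.092).

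Windows of 84 bases from 5 chromosome 7 genes that passed are shown. Zfp14, Zfp790 and Zfp27 lie in the same cluster, and Zfp93 and Zfp141 lie in other clusters. Each holds the first finger that is followed by the canonical linker, on mm10, read from the coding strand. Capitals mark the codons of the zinc-binding cysteines and histidines and of the 5 linker residues that join a finger to the next. Zfp14 is at chr7:30039052-30039135, Zfp790 at chr7:29828567-29828650, Zfp27 at chr7:29895501-29895584, Zfp93 at chr7:24275450-24275533 and Zfp141 at chr7:42475730-42475813.
Zfp14: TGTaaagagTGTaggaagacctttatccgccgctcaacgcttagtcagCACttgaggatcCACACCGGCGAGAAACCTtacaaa
Zfp790: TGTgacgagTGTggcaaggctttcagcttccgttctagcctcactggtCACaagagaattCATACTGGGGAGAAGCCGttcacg
Zfp27: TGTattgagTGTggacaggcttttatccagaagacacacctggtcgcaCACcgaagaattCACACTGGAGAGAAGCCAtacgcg
Zfp93: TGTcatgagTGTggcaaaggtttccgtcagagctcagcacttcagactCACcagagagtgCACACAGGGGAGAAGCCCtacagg
Zfp141: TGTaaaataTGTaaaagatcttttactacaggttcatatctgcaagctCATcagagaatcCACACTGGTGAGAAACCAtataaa
Base by base, pairs of these windows were between 54.8% and 65.5% identical, with Zfp790 and Zfp93 the closest pair and Zfp790 and Zfp141 the most distant. The windows were found by searching for the residues in capitals, so part of this identity was fixed in advance. Longer near copies exist elsewhere in these genes: Zfp93 shares 978 bases with Gm11677 at 98.2% identity, Zfp141 shares 388 bases with 2610021A01Rik at 97.4%, and Zfp109 shares 124 bases with Zfp94 at 95.2%. Their levels are less certain for that reason.

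**Figure D4:**
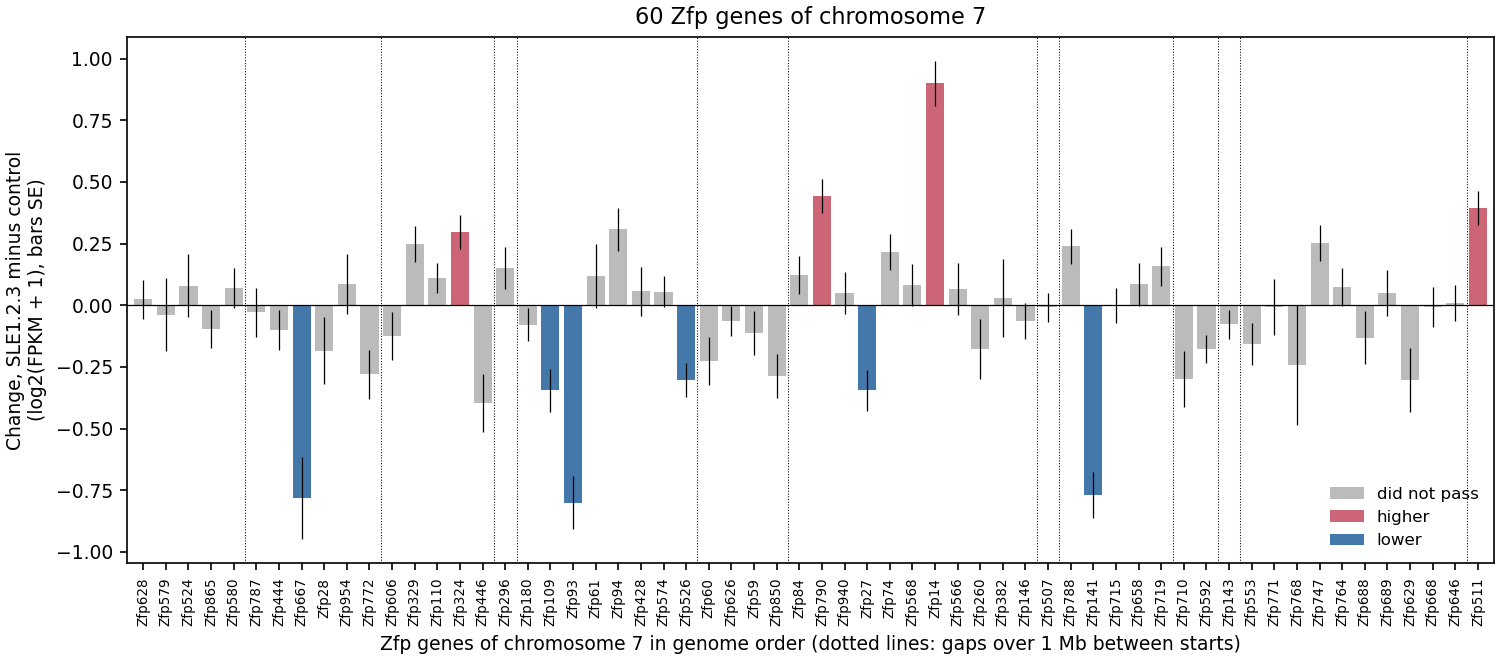
Change between groups (SLE1.2.3 minus control, log2(FPKM + 1), lines SE) of the 60 Zfp genes of chromosome 7, in genome order. Red bars are the 4 that rose and blue bars the 6 that fell, dotted lines are gaps of over 1 Mb, and grey neighbours of the called genes did not pass.

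The other chromosome 7 cluster with 3 calls (chr7:24081924-25227507) held 8 genes, and there all calls were lower. Of these, Zfp93 and Zfp109 entered the set only through their control levels, so the shared direction is a description. Zfp93 (chr7:24270420-24277794) had 1.84, 1.91 and 1.94 FPKM in the control mice and 0.834, 0.696 and 0.473 FPKM in the SLE1.2.3 mice. It was lower in every SLE1.2.3 mouse, at 2.83 times below the control mean, with a change of -0.80 ± 0.11 (SE; limma, adjusted p = 0.010). Zfp109 (chr7:24227572-24237560) had 1.28, 1.51 and 1.47 FPKM in the control mice and 0.903, 0.890 and 0.913 FPKM in the SLE1.2.3 mice, a change of -0.35 (limma, adjusted p = 0.046). Zfp526 (chr7:25221425-25227507) had 8.06, 8.49 and 8.81 FPKM in the control mice and 6.78, 7.002 and 6.21 FPKM in the SLE1.2.3 mice, a change of -0.30 (limma, adjusted p = 0.036). Of the 5 other members, Zfp94 was at 0.95, 1.14 and 1.12 FPKM in the control mice and 1.54, 1.52 and 1.63 FPKM in the SLE1.2.3 mice, and did not pass (limma, adjusted p = 0.060). Zfp180, Zfp61, Zfp428 and Zfp574 had changes from -0.08 to 0.12.

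Each of the other falls on chromosome 7 was the only call in its cluster, where genes under 1 FPKM are not counted. Zfp667 (chr7:6286579-6307883) had 2.23, 2.39 and 2.07 FPKM in the control mice and 1.38, 0.808 and 0.537 FPKM in SLE1.2.3 mice 1, 2 and 3, a change of -0.78 ± 0.17 (SE; limma, adjusted p = 0.032). It fell along the order of the SLE1.2.3 mice. Zfp141 (ENSMUSG00000092416.2, chr7:42473386-42505740), with 10 fingers and a KRAB-like box, had 7.80, 9.68 and 8.71 FPKM in the control mice and 5.06, 4.68 and 4.35 FPKM in the SLE1.2.3 mice. The change was -0.77 ± 0.09 (SE; limma, adjusted p = 0.0083) and was kept when each mouse was left out. The other members of the Zfp141 cluster did not pass. Zfp788 had 2.12, 2.37 and 2.23 FPKM in the control mice and 2.79, 2.84 and 2.83 FPKM in the SLE1.2.3 mice (limma, adjusted p = 0.067), and Zfp719 had a change of 0.16 with groups apart and higher. In Zfp715 and Zfp658 the groups overlapped. The remaining chromosome 7 genes that passed rose. Zfp324 (chr7:12965838-12974236) went from 2.69, 2.47 and 2.72 FPKM to 3.38, 3.40 and 3.55 FPKM, a change of 0.30 (limma, adjusted p = 0.039). Zfp511 (chr7:140036391-140040602) went from 7.23, 7.25 and 6.34 FPKM to 9.48, 9.19 and 9.59 FPKM, a change of 0.39 (limma, adjusted p = 0.020). It shares 216 exonic bases on the opposite strand with Tubgcp2, at 15.6 FPKM. The strand setting of the counting is not given in the sources used here, so these reads cannot be told apart.

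Neighbours under 1 FPKM were not tested in the main comparison, and values are given for some of those beside called genes, chosen after they were seen. Next to Zfp141, Zfp976 had 136, 206 and 76 reads in the control libraries and 0, 5 and 3 reads in the SLE1.2.3 libraries. Zfp975 had 0.726, 0.813 and 0.739 FPKM in the control mice and 0.196, 0.207 and 0.158 FPKM in the SLE1.2.3 mice. Zfp977 had 5, 4 and 3 reads in the controls and 0 in each SLE1.2.3 library, where a count of 0 allows up to 3 reads, so no fold is given. Zfp141, Zfp976 and Zfp975, picked after their values were seen, were lower in every SLE1.2.3 mouse than in any control. The listed values of Zfp977 had the same order, but the allowance of 3 reads reaches its count in control mouse 3. Next to Zfp109 and Zfp93, Zfp111 had 0.458, 0.421 and 0.387 FPKM in the controls and 0.145, 0.069 and 0.029 FPKM in the SLE1.2.3 mice. Within the Zfp14 run, Zfp30 had 0.265, 0.406 and 0.282 FPKM in the controls and 0.946, 0.784 and 0.668 FPKM in the SLE1.2.3 mice, while Zfp82, next to Zfp14, had 0.076, 0.061 and 0.1 against 0.014, 0.021 and 0.020 FPKM. When all genes were tested with no filter on low values, Zfp976, Zfp975, Zfp977 and Zfp111 had adjusted p of 0.016, 0.022, 0.028 and 0.029 by limma, while Zfp82 and Zfp30 did not pass, at 0.059 and 0.074.

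**Figure D5:**
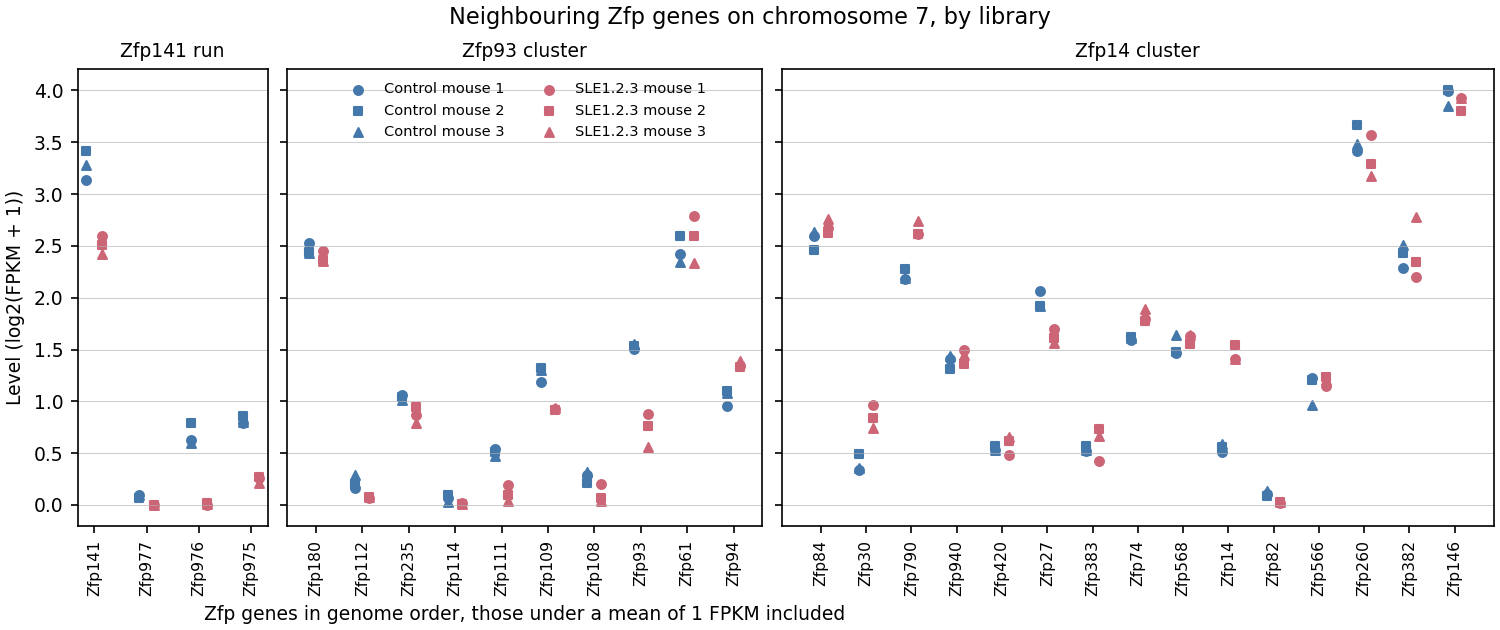
Levels (log2(FPKM + 1)) in every library of the Zfp genes in 3 stretches of chromosome 7, in genome order, with those under a mean of 1 FPKM included. Blue symbols are control mice and red symbols SLE1.2.3 mice; red lies below blue for all 4 genes of the Zfp141 run, and above it for Zfp14, Zfp790, Zfp74 and Zfp30 in the right panel, where Zfp27 and Zfp82 lie below.

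On chromosome 4, which carries Sle2, 2 of 9 Zfp genes passed and both rose, where 15.8% of the 697 genes tested there passed. Zfp69 (chr4:120930137-120951699), a KRAB gene known from a diabetes trait of obese mice, had 0.993, 1.08 and 1.09 FPKM in the control mice and 2.07, 1.80 and 2.08 FPKM in the SLE1.2.3 mice. The mean was 1.88 times higher, with a change of 0.54 ± 0.09 (SE; limma, adjusted p = 0.016). Zfp691 (chr4:119169513-119174195) had 2.39, 2.22 and 2.31 FPKM in the control mice and 3.69, 3.46 and 3.53 FPKM in the SLE1.2.3 mice, a change of 0.46 ± 0.07 (SE; limma, adjusted p = 0.013). In both, all 3 SLE1.2.3 mice were above all controls and their order did not follow the γδ receptor genes. Those receptor genes were also above every control in each SLE1.2.3 mouse, and their part in the rises was not tested. Chromosome 1, which carries Sle1, held 3 Zfp genes of the set, and 0 passed by limma. Of the 628 genes tested there, 18.2% passed, so 3 genes are too few for a reading of the 0. None of the 3 had an unadjusted p under 0.05. By limma voom 0 passed and 1 had an unadjusted p under 0.05, and without SLE1.2.3 mouse 1 limma called 1 lower. On the X chromosome Zfp182 rose from 1.96, 2.00 and 2.01 FPKM to 2.99, 2.77 and 2.79 FPKM, a change of 0.36 (limma, adjusted p = 0.024).

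Chromosome 17 held the largest cluster, 17 Zfp genes over 2.56 Mb, and its 3 calls were all higher. Of all genes tested on chromosome 17, 16.4% passed. Zfp160 had 2.55, 2.77 and 2.68 FPKM in the control mice and 3.54, 3.65 and 3.52 FPKM in the SLE1.2.3 mice, a change of 0.32 (limma, adjusted p = 0.029). Zfp943 had 1.81, 1.77 and 1.71 FPKM in the control mice and 2.47, 2.46 and 2.69 FPKM in the SLE1.2.3 mice, a change of 0.36 (limma, adjusted p = 0.029). Zfp758 had 2.60, 2.85 and 2.90 FPKM in the control mice and 3.47, 3.71 and 3.69 FPKM in the SLE1.2.3 mice, a change of 0.29 (limma, adjusted p = 0.044). Zfp943 and Zfp758 share 230 bases at 97.4% identity, so their counts are not fully separate. The groups were apart for 8 of the 17 genes, near the 41.5% of all genes. The other members were Zfp677, Zfp54, Zfp51, Zfp53, Zfp52, Zfp948, Zfp983, Zfp760, Zfp995, Zfp942, Zfp994, Zfp944, Zfp40 and Zfp213, and their changes ran from -0.25 to 0.33. Zfp53, the most abundant of the cluster, had 18.1, 18.4 and 18.5 FPKM in the control mice and 24.6, 15.5 and 12.9 FPKM in SLE1.2.3 mice 1, 2 and 3. Its SLE1.2.3 mice stood on both sides of the controls.

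By domain, KRAB-like genes had 9 calls higher and 4 lower among 121, or 10.7%, and genes without the box had 3 higher and 6 lower among 107, or 8.41%. Genes with 5 or more fingers had 11 higher and 7 lower among 192, and those with fewer had 1 higher and 3 lower among 36. These shares are below the 15.2% of all genes.

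Promoters were compared for the 192 Zfp genes that matched the RefSeq table (GRCm38.p6), each a window of 250 bases before to 50 bases after the start. The letters ACTACA, any 2 bases and then TCCC, searched on both strands, form the core of an element known to be bound by Zfp143. They were found in 32 of 192 Zfp genes (16.7%), in 5.21% of the promoters of all genes tested and in 2.08% of those of all genes. Among the Zfp genes that passed, 6 of 19 held it, namely Zfp14, Zfp790, Zfp93, Zfp109, Zfp317 and Zfp691. The motif was chosen after the sequences were seen. The GC box GGGCGG was in 52.6% of Zfp promoters against 70.1% of those of genes tested, and the ETS core CCGGAAG in 22.9% of both. A match is a description of letters and not a site of binding. KRAB-like genes held the ACTACA element in 21.5% of promoters and the others in 10.7%.

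The promoters of 3 called chromosome 7 genes with the motif are shown, with the match in capitals, because they moved in different directions. Zfp14, which rose, has it on the sense strand 14 bases before the start (chr7:30051347-30051646, minus strand). Zfp790, which also rose, has it on the other strand 104 bases before the start (chr7:29815822-29816121, plus strand), and Zfp93, which fell, has it on the other strand 72 bases before the start (chr7:24270168-24270467, plus strand).
Zfp14: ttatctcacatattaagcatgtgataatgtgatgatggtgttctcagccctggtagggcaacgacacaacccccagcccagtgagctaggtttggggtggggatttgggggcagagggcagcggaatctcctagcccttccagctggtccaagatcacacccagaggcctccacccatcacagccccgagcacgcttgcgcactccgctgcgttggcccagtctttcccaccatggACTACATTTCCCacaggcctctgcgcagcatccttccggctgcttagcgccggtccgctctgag
Zfp790: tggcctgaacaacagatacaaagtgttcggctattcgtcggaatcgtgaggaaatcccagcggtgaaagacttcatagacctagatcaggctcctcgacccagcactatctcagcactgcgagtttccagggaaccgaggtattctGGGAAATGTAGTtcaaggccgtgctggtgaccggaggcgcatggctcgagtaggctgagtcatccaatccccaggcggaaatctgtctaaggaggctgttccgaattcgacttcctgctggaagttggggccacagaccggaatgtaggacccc
Zfp93: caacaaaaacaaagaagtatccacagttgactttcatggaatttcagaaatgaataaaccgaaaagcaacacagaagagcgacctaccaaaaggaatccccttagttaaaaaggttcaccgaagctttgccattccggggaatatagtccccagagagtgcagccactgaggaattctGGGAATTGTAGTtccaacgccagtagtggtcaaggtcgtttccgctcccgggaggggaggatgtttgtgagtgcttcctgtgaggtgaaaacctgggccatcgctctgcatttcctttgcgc
Genes with the motif gave 4 calls higher and 2 lower among 32, and those without gave 7 higher and 6 lower among 160. Over all genes tested, 9.65% were called higher and 5.58% lower. Zfp143 itself had 9.98, 10.2 and 9.80 FPKM in the control mice and 9.17, 9.21 and 9.89 FPKM in the SLE1.2.3 mice, with overlapping groups.

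Zfp genes with a well-described role were examined as a set of 18, of which 16 were tested. Zfp263, given above, was the 1 that passed, where 15.2% of all genes did. Zfp91, a ubiquitin ligase of the noncanonical NF-κB pathway, had 9.57, 9.60 and 9.49 FPKM in the control mice and 9.80, 11.2 and 12.6 FPKM in the SLE1.2.3 mice, with groups apart and a change of 0.20 that did not pass (limma, adjusted p = 0.17). Another entry of the symbol Zfp91 averaged 0.00167 FPKM and was not tested in the main comparison. Zfp281, a repressor of differentiation genes, had 14.8, 14.6 and 15.5 FPKM in the control mice and 14.4, 13.2 and 11.5 FPKM in the SLE1.2.3 mice, a change of -0.19 (limma, adjusted p = 0.18). Zfp335, which T cell development requires, had a change of -0.01 and Zfp148 of 0.00, and the groups overlapped in both. Zfp410, known for its control of the chromatin remodeller Chd4, had 4.66, 4.29 and 4.46 FPKM in the control mice and 4.99, 4.87 and 5.19 FPKM in the SLE1.2.3 mice, and did not pass (limma, adjusted p = 0.18). Zfp809, a silencer of retroviral DNA, had a change of 0.15 and Zfp445, a keeper of imprints, of -0.06. Zfp384, Zfp638 and Zfp831 had changes of 0.07, 0.05 and 0.01.

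The cofactors through which KRAB proteins act were all expressed and none of the 24 passed, where 15.2% of all genes did. Unadjusted p was under 0.05 for 6 of them. On the recovered reads limma voom also called 0, where it called 13.1% of all genes. Other settings called some of the 24 lower: 1 with median ratio scaling, 2 with quantile normalization, 3 when SLE1.2.3 mouse 3 was left out, 1 when mouse 1 was, and 1 when mice 2 and 3 both were. Trim28, the scaffold that KRAB boxes bind, had 97.3, 88.3 and 88.4 FPKM in the control mice and 81.3, 70.3 and 71.0 FPKM in the SLE1.2.3 mice. The groups were apart, with a change of -0.30 (limma, adjusted p = 0.061). Dnmt1, the maintenance DNA methyltransferase, had a change of -0.34 and Cbx3, a heterochromatin protein, of -0.28 (limma, adjusted p = 0.063 each). Setdb1 had 13.4, 11.9 and 12.2 FPKM in the control mice and 11.8, 11.4 and 11.99 FPKM in the SLE1.2.3 mice. The median change over the 24 was 0.01, and -0.03 after quantile normalization, and 11 of them were below 0.

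Related zinc finger families, taken by symbol at the same mean of 1 FPKM, give a scale. Among 31 Zbtb genes 4 rose and 1 fell (16.1%, against 15.2% of all genes). Among 15 Zkscan and Zscan genes 0 passed by limma, 3 had an unadjusted p under 0.05, and limma voom called 0. Without SLE1.2.3 mouse 1, 2 of the 15 were called lower, where 32.5% of all genes passed. The difference between these shares and the 9.61% of Zfp genes was not tested.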

How the data were processed

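Polyadenylated RNA of 6 Th17 cultures was sequenced, 1 library per mouse, with mice numbered separately in the labels. The authors deposited FPKM values per gene. Tools named by the submitters' processing notes, whose roles are not stated, are DESeq2 1.24.0, featureCounts 2.0.0, STAR 2.7.3a, cutadapt 2.10 and FastQC 0.11.9, and the genome build is mm10. The strand setting of the counting was not given in the sources used here, nor was the annotation release. The 11378 genes averaging 1 FPKM or more were fitted on log2(FPKM + 1) with limma 3.58.1 in R 4.3.3 (empirical Bayes with a mean-variance trend). P-values, with a threshold of 0.05 after Benjamini-Hochberg adjustment over all these genes, measure the spread between these mice.

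Reads were recovered from the FPKM steps: 100% of the low values, those under 30 reads, were whole within 0.15 of a read. limma voom on these reads called 1496 genes. Depth sets the precision of low genes, which is least in control mouse 3, at 29734200 assigned reads. A count of 0 allows up to 3 reads, for counting error only. Coding sequences came from GENCODE M21, matched by ID for every Zfp gene, 227 with the same coordinates. Promoters came from RefSeq, and near copies were sought with blastn 2.17.0. The scripts were tested on simulated data.

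Named genes are the 10 largest calls in each direction, the calls on chromosomes 1, 4 and 7, the clusters with most calls (a tie of 3), the 5 highest means, a set with known roles, the genes at the limit of 1 FPKM, and the smallest adjusted p among 24 KRAB cofactors. The members, lists and rule were chosen with earlier results of these data known.

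The alternatives were another pseudocount (0.1), no filter, a stricter filter (5 FPKM), 3 other scalings, voom, a block for mouse numbers, and fits that leave out single mice or both SLE1.2.3 mice 2 and 3.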

Additional observations from a re-analysis of the deposited data

How the results depend on the processing

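The main counts were 12 Zfp genes higher and 10 lower. The pseudocount of 0.1, median ratio scaling, quantile normalization and limma voom kept both counts within 1.5 times. By limma voom they were 16 and 10, or 11.4% of the set against 13.1% of all genes. The pseudocount, median ratio and quantile fits called 9.61%, 9.61% and 10% of the set, against 15.9%, 15% and 15.8% of all genes. The differences between these shares were not tested. With no filter on low values, 5 of the 229 set members were higher and 4 lower. That fit also called Zfp976, Zfp975, Zfp977, Zfp111, Zfp683, Zfp750 and Zfp365 lower, which lie under 1 FPKM and are not counted. A mean of at least 5 FPKM, with 84 Zfp genes tested, gave 2 and 4, and a common FPKM sum 4 and 6. These counts are 3.93%, 7.14% and 4.37% of the set members tested, against 2.66%, 15.6% and 11.8% of all genes. With no filter, all genes include those under 1 FPKM and the set does not, so its 2.66% is no like background. A common FPKM sum moved the median change of all genes to 0.11 and that of the Zfp genes to 0.12. With 1 mouse left out, counts ran from 1 to 24 higher and from 3 to 29 lower. Without any 1 control or SLE1.2.3 mouse 2 they were 1 and 3, and without SLE1.2.3 mouse 3 they were 7 and 5. Without SLE1.2.3 mouse 1 they were 24 and 29, with all 22 main calls among the 53. Without SLE1.2.3 mice 2 and 3 they were 2 and 3, on the assumption that the lone mouse varies like the controls. Zfp14, Zfp608 and Zfp609 passed under every alternative that tested them, and Zfp141 under 14 of 15, the exception being the fit with SLE1.2.3 mouse 1 alone (adjusted p = 0.061). Zfp758 passed under 2 of 14. No call reversed. Among all genes, the share called ran from 2.11% to 32.5% with 1 mouse left out, against 15.2%, and was 5.84% without SLE1.2.3 mice 2 and 3. The cause was not tested.

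With the mouse number as a replicate block, 2 Zfp genes were higher and 4 lower, and 8.26% of all genes passed. The block also called 1 of the 15 Zkscan and Zscan genes lower. Same-numbered mice deviated from their group means with correlations of -0.00, 0.10 and 0.09. Pairs with different numbers ran from -0.19 to 0.125. The labels state no pairing, and so few mice cannot show whether those with the same number share anything else.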

Other observations

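Further Zfp genes under 1 FPKM were tested with limma only in the fit with no filter on low values. Zfp683 (Hobit), a factor of tissue-resident T cells, had 0.432, 0.587 and 0.526 FPKM in the control mice and 0.171, 0.121 and 0.190 FPKM in the SLE1.2.3 mice. Its groups were apart, on 32, 49 and 23 reads against 21, 11 and 21 (adjusted p = 0.038). Zfp365, chosen after its values were seen, had 1.28, 1.21 and 1.01 FPKM in the control mice and 0.336, 0.473 and 0.317 FPKM in the SLE1.2.3 mice, with every SLE1.2.3 mouse below every control (adjusted p = 0.042). Zfp57, a KRAB protein that keeps imprints in the embryo, did not pass (adjusted p = 0.25). It had 7, 7 and 4 reads in the control libraries and 21, 73 and 151 reads in SLE1.2.3 mice 1, 2 and 3. The γδ receptor genes, at 29.4, 157 and 337 FPKM, follow the same order of mice, and their part in the level of Zfp57 was not tested.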
